A study of Rattus norvegicus with 6 samples.

Results

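Integrins, laminins and the proteins that join them to the cytoskeleton were followed in cells labelled PC12, a line from a rat adrenal pheochromocytoma, after knockdown of NQO1. The genes were taken by their symbols, which covered the integrin alpha and beta chains, the laminin chains, fibronectin, the nidogens, dystroglycan, integrin-linked kinase, vinculin, talin 1 and focal adhesion kinase. This gave 47 protein-coding genes of the 18746 genes in the count table, and 38 of the 47 passed the filter on low counts, against 12420 genes in all. The samples were 3 libraries of NQO1 knockdown cells (siNQO1) and 3 libraries of control cells (siCtrl). Both groups were transfected by lipofection, the first with an siRNA to NQO1 and the second with a nontargeting siRNA according to the methods of the paper, whereas the sample labels also speak of an shRNA and a control plasmid. The labels give a harvest at 48 h, in a sentence on RT-qPCR. The replicates are called biological in the paper, but whether they are separate cultures is not spelled out, so the p-values measure the spread between these libraries. The smallest two-sided p of an exact permutation test between groups of 3 libraries is 0.10.

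An integrin is a pair of an alpha and a beta chain that spans the cell membrane, and the alpha chain largely sets which matrix protein is bound. Laminins are trimers of an alpha, a beta and a gamma chain and, with nidogens and type IV collagen, form the basement membrane. Inside the cell, talin binds the beta tail and activates the integrin, vinculin strengthens the link to actin, integrin-linked kinase (ILK) acts as a scaffold, and focal adhesion kinase (FAK, encoded by Ptk2) passes on the signal. Dystroglycan is a laminin receptor outside the integrin family.

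The libraries held 28873824 to 39467230 reads counted in genes. Nqo1 was at 80.8, 75.2 and 77.7 FPKM in siNQO1 and at 369, 321 and 345 FPKM in siCtrl (log2 fold change -2.13, adjusted p = 1.54e-06 from edgeR). One control library stood apart: on the second principal component of log2 CPM, siCtrl replicate 2 had a score of -29.0, against scores from 0.477 to 12.0 in the other libraries. On the first component it had a score of -5.08, on the side of the siNQO1 libraries (-19.6 to -12.1) and away from the other siCtrl libraries (20.7 and 32.2). Its correlation across genes was 0.989 to 0.990 with the siNQO1 libraries, against 0.986 and 0.989 with the other siCtrl libraries. Results are therefore also given without it. This library was picked from the same data, partly for lying toward the siNQO1 libraries. Calls made only without it are therefore not separate support. The cells were checked against the defining markers of chromaffin cells. Of 18 such markers, 16 were listed and Scg2 was the one marker over 1 FPKM in every library, at 108 to 119 FPKM in siNQO1 and 165 to 175 FPKM in siCtrl. Th and Dbh, which make catecholamines, and the granule protein Chga stayed at or under 0.12 FPKM in every library, so the defining markers of PC12 cells were at or near 0. Of 12 markers of Schwann cells, 7 were over 1 FPKM in every library, among them Sox10 (192 to 208 FPKM in siNQO1 and 198 to 233 FPKM in siCtrl) and S100b (169 to 175 FPKM in siNQO1 and 221 to 250 FPKM in siCtrl). The summed FPKM of the listed Schwann markers was 559 to 561 in siNQO1 and 584 to 657 in siCtrl, and that of 12 leukocyte markers was 24.7 to 26.4 in siNQO1 and 26.7 to 28.7 in siCtrl. Their part in the results below was not tested. In libraries made from whole cultures, fewer cells of a type and less RNA per cell cannot be told apart.

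A gene is called higher or lower where the Benjamini-Hochberg adjusted p of the quasi-likelihood test of edgeR, taken over all 12420 genes tested, was under 0.05. Among the 38 members tested, 1 was higher (2.63%, where 5.27% of all genes tested were higher) and 5 were lower (13.2%, where 7.38% of all genes tested were lower). The share of higher members was thus below that of all genes and the share of lower members above it, on counts this small. Itga1 was the member called higher, and Ptk2, Itgav, Itga6, Vcl and Itgax were those called lower. The other 32 members did not pass, and 12 of the 38 had an unadjusted p under 0.05 (31.6%, against 28.95% of all genes tested). The median log2 fold change was -0.04 over the 38 members and 0.01 over all genes tested. With the further threshold of a fold over 2, 1 member was called, Itgax, and 0.435% of all genes tested were called. The siNQO1 libraries lay wholly above the siCtrl libraries in 5 members (13.2%, against 16.3% of all genes tested) and wholly below them in 9 members (23.7%, against 17.9% of all genes tested). These counts were taken on CPM after TMM scaling.

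**Figure D1:**
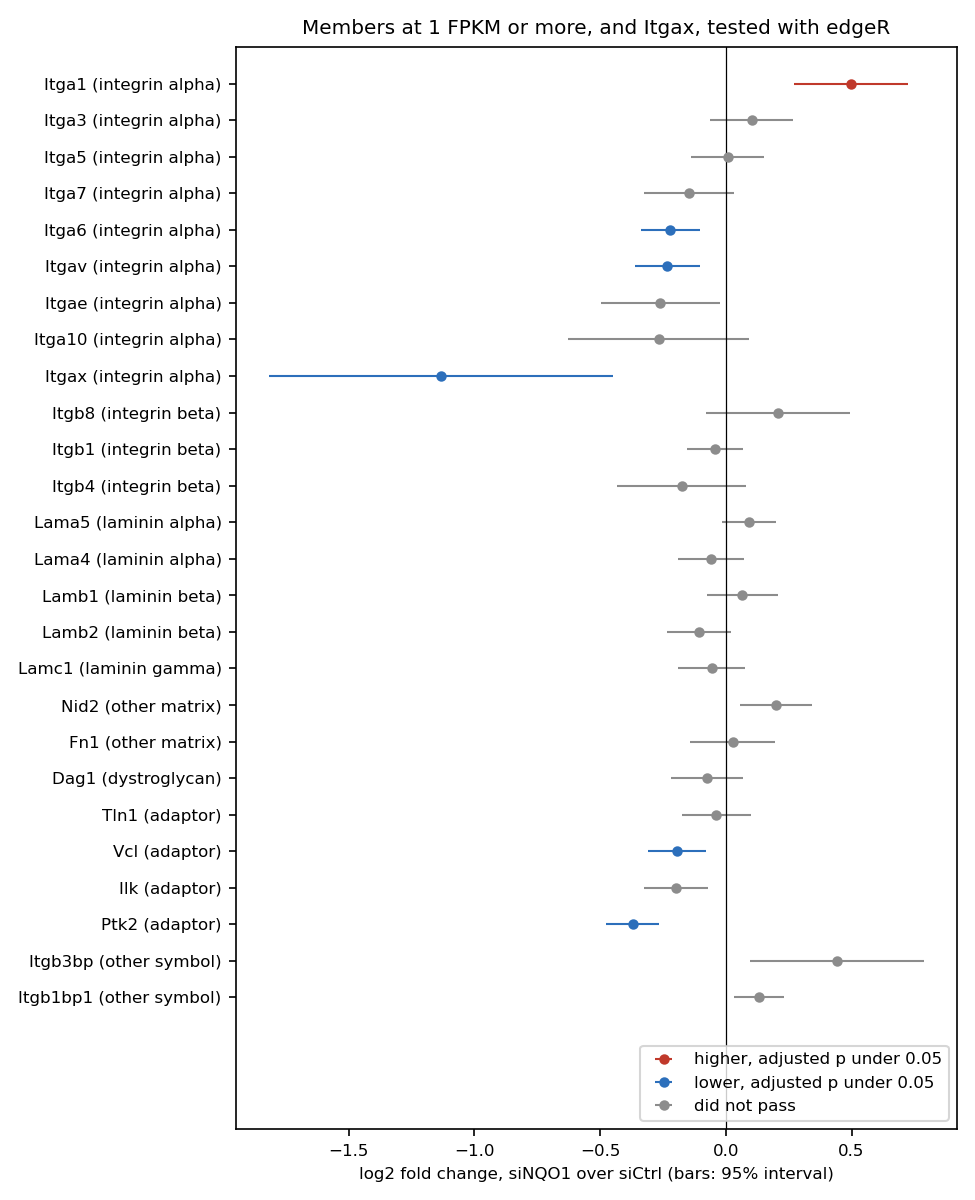
Log2 fold change of siNQO1 over siCtrl for the 25 members with a mean of at least 1 FPKM and for Itgax, by role, with 95% intervals as horizontal bars. Red marks the member called higher, blue the 5 called lower and gray the 20 that did not pass; Itgax, with few reads, has the widest interval shown.

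The calls depended on which libraries were in the test. Without siCtrl replicate 2, 5 members were higher and 10 were lower, while 17.2% and 16.1% of all genes tested were higher and lower. Without any other single library, 0 or 1 members were higher and 1 to 3 were lower, while 1.32% to 2.73% of all genes tested were higher and 2.78% to 5.23% were lower. Ptk2 was the one member called with each of the 6 libraries left out in turn, and its largest adjusted p in these tests of edgeR was 0.0220.

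Focal adhesion kinase had the clearest difference. Ptk2 was at 16.8, 16.5 and 16.8 FPKM in siNQO1 libraries, against 21.9, 22.1 and 21.3 FPKM in siCtrl libraries. The libraries of each group lay close together and the groups did not overlap. The means were 16.7 ± 0.193 FPKM in siNQO1 and 21.8 ± 0.396 FPKM in siCtrl (SD, n = 3 each), so 76.6% of the control level was left. The log2 fold change was -0.37 (standard error 0.046, 95% interval -0.48 to -0.26, adjusted p = 0.00242 from edgeR). Between 2275 and 3259 reads per library stood behind these values. Ptk2 is on chromosome 7 (ENSRNOG00000007916). In siCtrl replicate 2 its log2 CPM lay 0.01 above the siCtrl mean, so the library that stood apart over all genes did not do so for Ptk2.

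Vinculin was lower by less. Vcl (ENSRNOG00000010765, chromosome 15) was at 24.9, 24.7 and 23.3 FPKM in siNQO1 libraries, against 28.6, 27.7 and 27.9 FPKM in siCtrl libraries. Again the groups did not overlap, with a log2 fold change of -0.19 (standard error 0.050) at an adjusted p of 0.0393 in edgeR. This call was lost without any 1 library other than siCtrl replicate 2, with adjusted p of up to 0.114 in edgeR. The scaffold gene Ilk was at 186, 186 and 189 FPKM in siNQO1 libraries, against 230.4, 203 and 217 FPKM in siCtrl libraries. Its groups did not overlap either, and its log2 fold change of -0.20 (standard error 0.057) had an adjusted p of 0.0529 in edgeR, just outside the threshold. Without siCtrl replicate 2 it passed (adjusted p = 0.000253 in edgeR). Talin 1, which activates integrins, did not pass. Tln1 was at 36.1, 35.9 and 37.9 FPKM in siNQO1 libraries, against 40.1, 35.1 and 38.7 FPKM in siCtrl libraries, and the groups overlapped. The 95% interval of its log2 difference was -0.18 to 0.10.

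Among the alpha chains, the laminin receptors were the most abundant. Itga3, Itga6 and Itga7 encode the alpha chains of integrins that bind laminins, and they led the 17 alpha chains listed. Itga3 was at 107.7, 106 and 109 FPKM in siNQO1 libraries, against 110.3, 90.6 and 103 FPKM in siCtrl libraries. The siNQO1 values lay inside the range of the siCtrl values, and the log2 fold change of 0.10 did not pass (95% interval -0.06 to 0.27). Itga6 (ENSRNOG00000001518, chromosome 3) was at 61.0, 57.3 and 57.8 FPKM in siNQO1 libraries, against 67.3, 71.7 and 68.2 FPKM in siCtrl libraries. Here every siNQO1 library was below every siCtrl library, with a log2 fold change of -0.22 (standard error 0.051) at an adjusted p of 0.0276 in edgeR. The call was lost without siNQO1 replicate 2, siNQO1 replicate 3 or siCtrl replicate 3, with adjusted p of up to 0.116 in edgeR. Itga7 was at 56.5, 57.6 and 60.3 FPKM in siNQO1 libraries, against 67.9, 57.1 and 69.7 FPKM in siCtrl libraries. Replicate 2 was the low one of the siCtrl libraries and lay among the siNQO1 libraries, and Itga7 did not pass (log2 fold change -0.15, adjusted p = 0.259 in edgeR). Without that library it was called lower (log2 fold change -0.24, adjusted p = 0.000698 in edgeR). In siCtrl, Itga6 and Itga7 averaged 69.1 ± 2.302 and 64.9 ± 6.81 FPKM (SD, n = 3 each), a gap smaller than the spread of Itga7, and in siNQO1 they averaged 58.7 ± 1.98 and 58.2 ± 1.95 FPKM (SD, n = 3 each).

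The receptors for fibronectin and vitronectin came next. Itgav (ENSRNOG00000004912, chromosome 3), the alpha V chain of integrins that read the RGD motif, was at 19.6, 19.9 and 20.3 FPKM in siNQO1 libraries, against 25.1, 22.3 and 23.6 FPKM in siCtrl libraries. The groups did not overlap, and Itgav was lower with a log2 fold change of -0.23 (standard error 0.057, adjusted p = 0.0321 from edgeR). It was no longer called without any 1 of the siNQO1 libraries or without siCtrl replicate 3, with adjusted p of up to 0.102 in edgeR. Itga5, the alpha chain of the classical fibronectin receptor, did not pass. It averaged 18.2 ± 0.420 FPKM in siNQO1 and 18.3 ± 1.32 FPKM in siCtrl (SD, n = 3 each), and the 95% interval of its log2 difference was -0.14 to 0.15.

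The alpha chain of a collagen and laminin receptor was the member that rose. Itga1 was at 6.20, 7.37 and 6.02 FPKM in siNQO1 libraries, against 4.48, 5.11 and 4.42 FPKM in siCtrl libraries. All siNQO1 libraries were above all siCtrl libraries, with siNQO1 replicate 2 the highest. The means were 6.53 ± 0.733 FPKM in siNQO1 and 4.67 ± 0.382 FPKM in siCtrl (SD, n = 3 each), and the log2 fold change was 0.50 (standard error 0.10, 95% interval 0.27 to 0.73, adjusted p = 0.0158 from edgeR). Reads per library numbered 998, 1169 and 1144 in siNQO1 and 619, 865 and 748 in siCtrl. Itga1 is on chromosome 2 and is listed as ENSRNOG00000053550. In the RefSeq annotation of GRCr8, the ribosome rescue gene Pelo lies inside the span of Itga1 on the same strand. Pelo was at 16.0, 15.9 and 16.8 FPKM in siNQO1 libraries, against 15.2, 14.8 and 14.5 FPKM in siCtrl libraries, and did not pass (log2 fold change 0.14, adjusted p = 0.186 in edgeR). How reads in the shared span were assigned is not given in the sources used here. Without siNQO1 replicate 1, siNQO1 replicate 2, siCtrl replicate 1 or siCtrl replicate 3, Itga1 no longer passed, with adjusted p of up to 0.0908 in edgeR. Itga10, the alpha chain of another collagen receptor, averaged 1.45 ± 0.193 FPKM in siNQO1 and 1.76 ± 0.313 FPKM in siCtrl (SD, n = 3 each) and did not pass. Itga10 was called lower without siCtrl replicate 2.

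**Figure D2:**
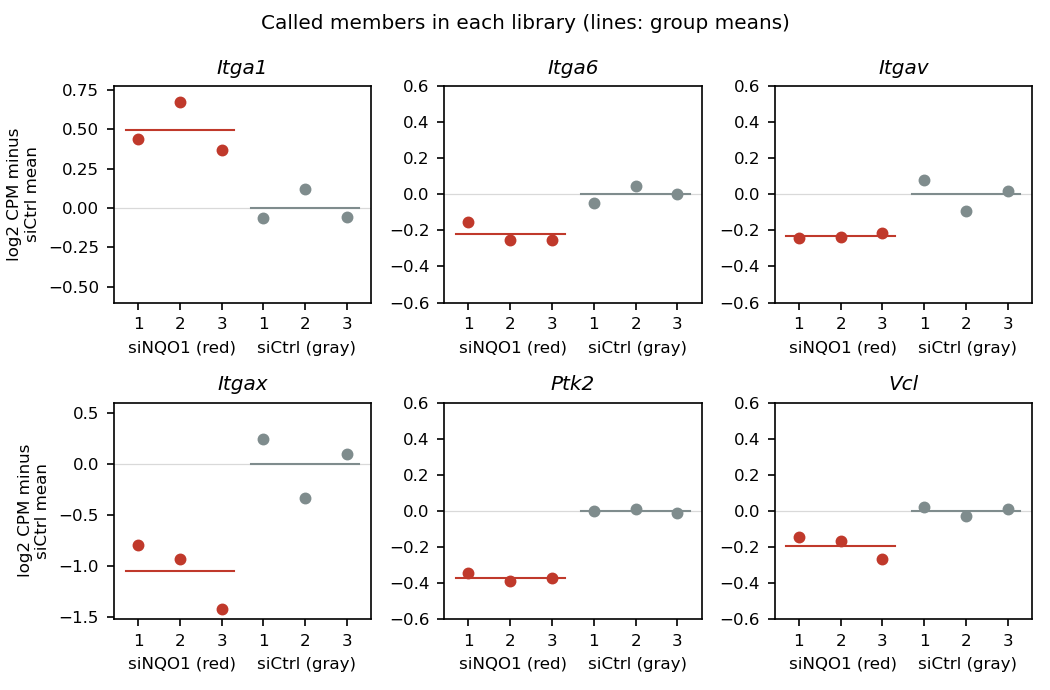
Log2 CPM of the 6 called members in each library, minus the mean of the siCtrl libraries, with siNQO1 libraries in red, siCtrl libraries in gray and lines at the group means. Vertical ranges differ between panels; Ptk2 sits between -0.39 and -0.35 in siNQO1, and Itgax, with few reads, spreads the most.

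The remaining alpha chains were scarce. Itgae, which pairs with beta 7 on lymphocytes, was at 1.15, 1.21 and 1.20 FPKM in siNQO1 libraries, against 1.43, 1.43 and 1.44 FPKM in siCtrl libraries, and did not pass (adjusted p = 0.140 in edgeR). Itgax (ENSRNOG00000036703, chromosome 1), a chain known from dendritic cells and macrophages, was called lower at a very low level. It had 19, 17 and 14 reads in siNQO1 libraries, against 36, 29 and 39 reads in siCtrl libraries, which is 0.0933 ± 0.0208 FPKM in siNQO1 and 0.197 ± 0.0416 FPKM in siCtrl (SD, n = 3 each). The log2 fold change was -1.13 (standard error 0.30, 95% interval -1.82 to -0.45, adjusted p = 0.0425 from edgeR), and the call was lost without any 1 library other than siCtrl replicate 2, with adjusted p of up to 0.141 in edgeR. Its usual partner Itgb2 was at 0.463 ± 0.0208 FPKM in siNQO1 and 0.657 ± 0.0987 FPKM in siCtrl (SD, n = 3 each) and did not pass (adjusted p = 0.105 in edgeR). Itga4, Itga8 and Itga2b were tested at mean levels from 0.103 to 0.307 FPKM and did not pass. Itga2, Itga9, Itga11, Itgal and Itgam had at most 17 reads in any library and were not tested, and the depth does not show whether they differed.

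The beta 1 chain dominated its class. Itgb1, the partner of Itga1, Itga3, Itga5, Itga6 and Itga7, was at 149, 149.7 and 151 FPKM in siNQO1 libraries, against 152, 164 and 152 FPKM in siCtrl libraries. It made up 96.9% of the summed FPKM of the 7 beta chains in siNQO1 and 97.0% in siCtrl. Although siCtrl replicate 2 was the highest library, Itgb1 did not pass (log2 fold change -0.04, 95% interval -0.16 to 0.07). Itgb8, which with alpha V activates latent TGF-beta, was at 2.46, 2.78 and 2.58 FPKM in siNQO1 libraries, against 2.01, 2.67 and 2.14 FPKM in siCtrl libraries. Itgb4, which pairs with alpha 6 in hemidesmosomes, was at 1.44, 1.52 and 1.51 FPKM in siNQO1 libraries, against 1.66, 1.51 and 1.92 FPKM in siCtrl libraries. In both genes the groups overlapped and neither passed. Itgb8 was called higher without siCtrl replicate 2 (log2 fold change 0.33, against 0.21 with all libraries, adjusted p = 0.0336 in edgeR). Itgb3 and Itgb7 were tested at 4 to 18 reads per library and did not pass, and Itgb6, with 1 to 6 reads, was not tested.

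**Figure D3:**
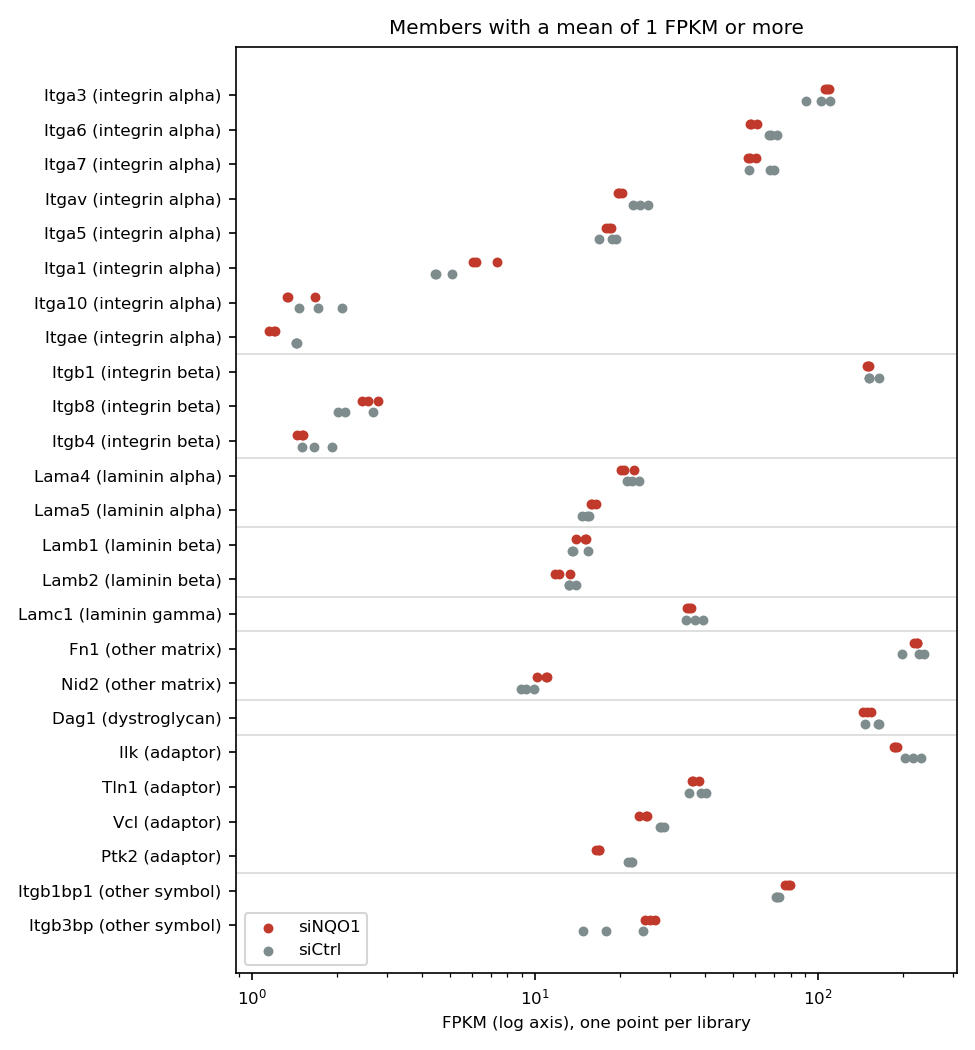
FPKM of the 25 members with a mean of at least 1 FPKM, on a log axis, with 1 point per library, siNQO1 in red above siCtrl in gray. Fn1, Ilk, Itgb1, Dag1 and Itga3 lie near or above 100 FPKM, and Itgae, Itgb4 and Itga10 lie nearest to 1 FPKM.

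None of the 10 laminin chains tested passed in edgeR, and none had an unadjusted p under 0.05. DESeq2 and limma voom called none of them either. The chains over 1 FPKM were alpha 4, alpha 5, beta 1, beta 2 and gamma 1. Lamc1, the gamma chain shared by most laminins, was the most abundant, at 34.9, 34.5 and 35.5 FPKM in siNQO1 libraries, against 39.1, 34.2 and 36.8 FPKM in siCtrl libraries. Its groups overlapped (95% interval of the log2 difference -0.19 to 0.08). Lama4, known from vessels and peripheral nerve, was at 20.2, 20.6 and 22.4 FPKM in siNQO1 libraries, against 23.3, 21.1 and 21.95 FPKM in siCtrl libraries (95% interval -0.19 to 0.07). Lama5, a broadly used alpha chain of mature basement membranes, was at 15.9, 15.8 and 16.4 FPKM in siNQO1 libraries, against 15.6, 14.6 and 15.3 FPKM in siCtrl libraries (95% interval -0.02 to 0.20). The beta chains Lamb1 and Lamb2 averaged 14.7 ± 0.643 and 12.4 ± 0.781 FPKM in siNQO1, and 14.2 ± 1.01 and 13.5 ± 0.458 FPKM in siCtrl (SD, n = 3 each). In siCtrl the gap between these genes was within the spread of Lamb1. Lama1, Lama2, Lama3 and Lamb3 stayed under 0.7 FPKM in every library and did not pass, and Lamc3 had 1 read over the 6 libraries. Lamc1 alone of the laminins was called without siCtrl replicate 2 (log2 fold change -0.11, adjusted p = 0.0413 in edgeR).

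Within a class, the shares of the chains could be set side by side on the FPKM scale, where chains of 1 class add up to 100% and so are not independent. Itga3 made up 39.5 ± 0.0680% of the summed alpha chain FPKM in siNQO1 and 35.3 ± 1.56% in siCtrl (SD, n = 3 each). Itga1 made up 2.40 ± 0.295% in siNQO1 and 1.64 ± 0.233% in siCtrl (SD, n = 3 each). Among laminin alpha chains, Lama5 made up 42.3 ± 0.838% in siNQO1 and 39.8 ± 0.578% in siCtrl (SD, n = 3 each). Among laminin beta chains, Lamb1 made up 53.8 ± 1.13% in siNQO1 and 51.0 ± 0.820% in siCtrl (SD, n = 3 each). For these 4 chains, and for Itga5 (6.68% in siNQO1 and 6.40% in siCtrl), every siNQO1 library was above every siCtrl library. The shares of Itgav (7.31% in siNQO1 and 8.27% in siCtrl), Itga6 (21.5% in siNQO1 and 24.2% in siCtrl), Lama4 (55.5% in siNQO1 and 57.9% in siCtrl) and Lamb2 (45.3% in siNQO1 and 48.4% in siCtrl) lay wholly below. Over the 16 sums and shares compared, the smallest two-sided exact permutation p was 0.10, the floor of this design, and 0.16 after Benjamini-Hochberg adjustment. The summed alpha chain FPKM was 273 ± 3.15 in siNQO1 and 286 ± 16.3 in siCtrl (SD, n = 3 each), with overlapping groups (exact permutation p = 0.40). The summed beta chain FPKM was 153.5 to 155.6 in siNQO1 and 156.03 to 169.5 in siCtrl, with every siNQO1 library below every siCtrl library. Itgb1 made up 97.0% of this sum in siCtrl, and on CPM after TMM scaling its groups overlapped.

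**Figure D4:**
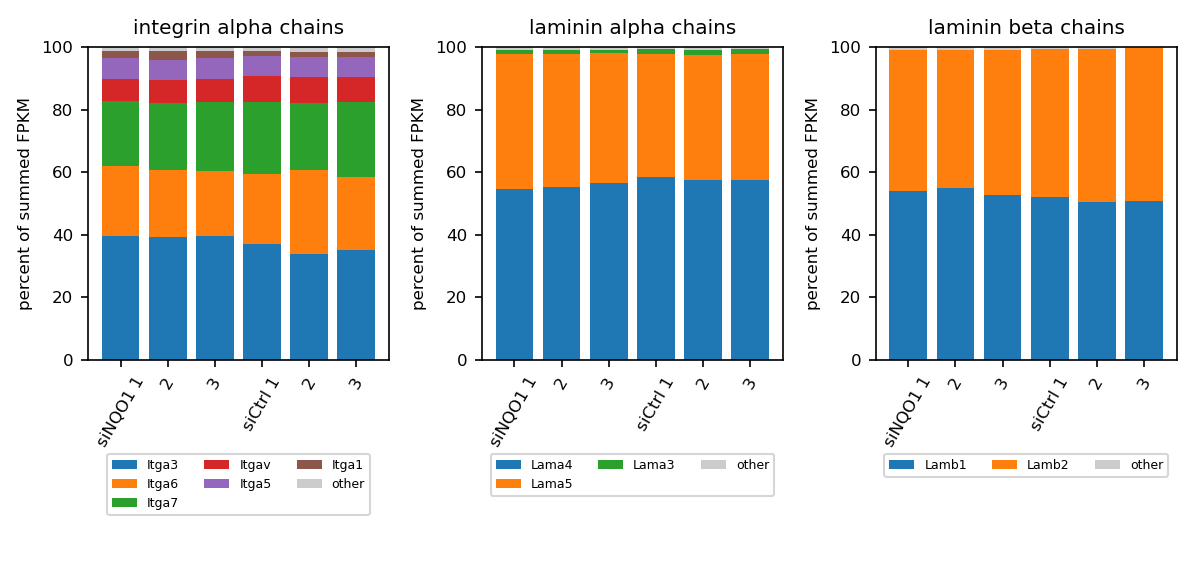
Stacked bars give the percent of the summed FPKM of a class that each chain made up, in the 3 siNQO1 libraries on the left of each panel and the 3 siCtrl libraries on the right. Chains under 1% in siCtrl are pooled as other; Itga3 sits at 39.4% to 39.5% in siNQO1 and at 33.9% to 37.0% in siCtrl.

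Fibronectin was the most abundant member. Fn1, which encodes the main ligand of alpha 5 beta 1, was at 224, 219 and 224 FPKM in siNQO1 libraries, against 237, 197 and 226 FPKM in siCtrl libraries. The siNQO1 libraries lay inside the range of the siCtrl libraries, of which replicate 2 was the lowest, and the log2 fold change was 0.03 (95% interval -0.14 to 0.20). Nid2, which links laminin to type IV collagen, was at 10.1, 10.9 and 11.0 FPKM in siNQO1 libraries, against 9.94, 8.93 and 9.31 FPKM in siCtrl libraries. Its groups did not overlap, but its log2 fold change of 0.20 (standard error 0.063) had an adjusted p of 0.0726 in edgeR. Nid1 had at most 3 reads in a library and was not tested. Dag1, whose product is cut into both dystroglycan subunits, was at 154, 145 and 148 FPKM in siNQO1 libraries, against 164, 147 and 163 FPKM in siCtrl libraries. The groups overlapped, and the 95% interval of the log2 difference was -0.22 to 0.07. Without siCtrl replicate 2, both were called, Nid2 higher (adjusted p = 0.0463 in edgeR) and Dag1 lower (adjusted p = 0.0165 in edgeR). In that test, 17.2% of all genes tested were higher and 16.1% were lower.

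Another 4 symbols met the rule without being integrin chains. Itgb1bp1 (also known as ICAP1), which binds the beta 1 tail and restrains integrin activation, was at 78.1, 76.5 and 79.5 FPKM in siNQO1 libraries, against 71.9, 72.8 and 71.0 FPKM in siCtrl libraries. Itgb3bp (also known as CENP-R), a protein of the inner kinetochore, was at 25.5, 26.5 and 24.5 FPKM in siNQO1 libraries, against 14.8, 24.2 and 17.8 FPKM in siCtrl libraries. In both genes the siNQO1 libraries lay above the siCtrl libraries, for Itgb3bp by a small margin over siCtrl replicate 2. Neither passed (log2 fold changes 0.13 and 0.44, adjusted p = 0.0878 and 0.0938 in edgeR), and both were called higher without siCtrl replicate 2. Itgb1bp2 had 2 to 15 reads per library and did not pass, and Itgbl1 had 1 read in all.

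Promoter sequences were looked up for the called members, to show what lies before the genes whose levels differed. RefSeq promoters on GRCr8, from 250 bases before to 50 bases after the gene start, were matched by symbol for 35 of the 47 members and for 4 of the 6 called. Those of the called members over 1 FPKM are given 5′ to 3′, and Ptk2 and Itga6 are named only. Capitals mark matches on either strand to a GC box (GGGCGG) or a TEAD site (GGAATG). The core of the antioxidant response element (TGACNNNGC) and an AP-1 site (TGANTCA) were also searched and had no match in these windows. The letters of a GC box occur in 33.1% of all 33469 promoters of this length, those of a TEAD site in 14.2%, those of the antioxidant response element core in 12.1% and those of an AP-1 site in 7.33%. Promoters of noncoding RNA genes are among them.
Itga1, chr2:48545234-48545533, strand -: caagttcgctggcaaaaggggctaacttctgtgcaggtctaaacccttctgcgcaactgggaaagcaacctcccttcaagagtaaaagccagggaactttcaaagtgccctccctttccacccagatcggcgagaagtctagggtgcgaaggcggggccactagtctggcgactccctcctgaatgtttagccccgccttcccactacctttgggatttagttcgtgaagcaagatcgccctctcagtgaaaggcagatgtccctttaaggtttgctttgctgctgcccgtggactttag
Itgav, chr3:89245132-89245431, strand +: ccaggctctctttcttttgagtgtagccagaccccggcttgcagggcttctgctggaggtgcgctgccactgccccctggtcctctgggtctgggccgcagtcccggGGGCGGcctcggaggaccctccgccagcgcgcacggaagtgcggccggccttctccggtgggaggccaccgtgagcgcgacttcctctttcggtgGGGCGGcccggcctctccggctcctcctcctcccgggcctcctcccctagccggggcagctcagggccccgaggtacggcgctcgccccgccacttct
Vcl, chr15:3404751-3405050, strand -: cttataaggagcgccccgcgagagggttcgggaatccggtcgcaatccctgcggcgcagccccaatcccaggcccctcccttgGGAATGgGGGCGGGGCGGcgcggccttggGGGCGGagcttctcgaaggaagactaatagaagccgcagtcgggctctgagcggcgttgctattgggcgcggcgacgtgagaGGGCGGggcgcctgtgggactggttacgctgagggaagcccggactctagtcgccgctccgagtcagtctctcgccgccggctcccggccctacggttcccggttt
The window of Itga1, the member that rose, held no match to the 4 motifs, and 53.7% of its bases were G or C. The windows of Itgav and Vcl, which were lower, held 2 and 4 GC box letter matches, and 72.7% and 68.7% of their bases were G or C, beside a median of 51.7% over all promoters. In Vcl the matches at -160 and -155 from the start share a base, and the TEAD letters lie just before them. The window of Itgax, which was also lower, held no GC box match, and 50.3% of its bases were G or C. It held 1 match to the antioxidant response element core and 1 to the AP-1 site. This window is not shown because of the low level of Itgax. These matches are descriptions of the letters and not of bound sites.

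Other genes of the adhesion pathway were taken from 4 lists. Of 53 adaptors and activators tested, 2 were higher (3.77%), 4 were lower (7.55%) and 47 did not pass, with a median log2 fold change of -0.07. Both shares were near or below those of all genes tested (5.27% higher and 7.38% lower). The actin crosslinker Actn4 averaged 228 ± 3.22 FPKM in siNQO1 and 301.5 ± 15.8 FPKM in siCtrl (SD, n = 3 each), with a log2 fold change of -0.39 (adjusted p = 0.00438 from edgeR). The signaling adaptor Shc1, the tensin Tns1 and the paxillin partner Git1 were lower as well, with log2 fold changes of -0.28, -0.34 and -0.23. Tns2, another tensin that binds beta tails, and Tes, a protein of focal adhesions, rose, with log2 fold changes of 0.35 and 0.25. Of these 6, Actn4 kept its call with each library left out, Tns2 lost it without siNQO1 replicate 2 (adjusted p = 0.0517 in edgeR), Shc1 lost it without 3 libraries and the others without 5. Without siCtrl replicate 2, 9 of this list were higher and 13 were lower, while 17.2% and 16.1% of all genes tested were higher and lower.

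Of 19 genes of the dystroglycan complex and its glycosylation tested, 2 were higher (10.5%, against 5.27% of all genes tested), 2 were lower (10.5%, against 7.38% of all genes tested) and 15 did not pass, with a median log2 fold change of 0.05. Sarcospan, Sspn, a small membrane protein of the complex, averaged 2.47 ± 0.229 FPKM in siNQO1 and 4.50 ± 0.551 FPKM in siCtrl (SD, n = 3 each), with a log2 fold change of -0.85 (adjusted p = 0.00324 from edgeR) and a call with each library left out. Pomgnt1 was lower (log2 fold change -0.27) and Pomgnt2 rose by 0.28 on the log2 scale. Both encode enzymes that extend sugars on dystroglycan. The sarcoglycan Sgce rose by 0.17 on the log2 scale at 131 ± 2.10 FPKM in siNQO1 and 117 ± 3.86 FPKM in siCtrl (SD, n = 3 each). These 3 calls were lost without at least 1 library, with adjusted p of up to 0.213 in edgeR, and that of Sgce was also lost in 9 of 11 other settings.

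Of 33 other basement membrane proteins and integrin ligands tested, Ntn4 was higher (3.03%, against 5.27% of all genes tested), 0 were lower in edgeR (against 7.38% of all genes tested) and 9 had an unadjusted p under 0.05 (27.3%, against 28.95% of all genes tested), with a median log2 fold change of 0.01. DESeq2 called 2 genes of this list lower, and limma voom and the exact test of edgeR called 1 each. The quasi-likelihood test of edgeR also called 1 lower with a filter of 1 CPM in every library of a group. Ntn4 encodes netrin 4, which binds laminin gamma chains, and averaged 4.32 ± 0.469 FPKM in siNQO1 and 2.58 ± 0.267 FPKM in siCtrl (SD, n = 3 each). Its log2 fold change was 0.76 (adjusted p = 0.00685 from edgeR), and it passed with each library left out. Without siCtrl replicate 2, 5 genes of this list were higher and 5 were lower, again where 17.2% and 16.1% of all genes tested were called. Integrin-associated membrane proteins and other laminin receptors made up a list with 27 genes tested, of which 24 did not pass, 2 passed as higher (7.41%, against 5.27% of all genes tested) and 1 passed as lower (3.70%, against 7.38% of all genes tested), with a median log2 fold change of -0.01. The hyaluronan receptor Cd44 (log2 fold change 0.20) and the glypican Gpc1 (log2 fold change 0.25) were the genes that rose. The tetraspanin Cd151, a partner of alpha 3 and alpha 6 integrins, was called lower although the groups overlapped, at 5.67, 5.54 and 10.7 FPKM in siNQO1 libraries and 9.91, 27.4 and 17.8 FPKM in siCtrl libraries. Its log2 fold change was -1.32 (adjusted p = 0.0483 from edgeR). Each of these 3 calls was lost without any of 4 single libraries, with adjusted p of up to 0.193 in edgeR, and that of Cd151 was also lost in 7 of 11 other settings.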

How the data were processed

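Counts and FPKM of 6 libraries, 3 siNQO1 and 3 siCtrl, were analysed. According to the paper, the authors trimmed reads and placed them on RGSC6 with TopHat2, keeping those that mapped once. The deposited counts are whole reads per gene and not normalized, and the deposited FPKM values are the authors' scaling of reads by transcript length and library size. Tools in the submitters' processing notes are TopHat2, bcl2fastq and edgeR. Neither the counter nor its use of strand is given in the sources used here.

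Counts were tested in R 4.3.3 with edgeR 4.0.16 (filterByExpr, TMM scaling, glmQLFit and glmQLFTest, no block), with Benjamini-Hochberg adjustment over all 12420 genes tested. The test was tried on simulated data. Alternatives were other scalings, filters and tests, DESeq2 1.42.0, limma 3.58.1 (voom, and log2 FPKM with a pseudocount of 1 or 0.1), a replicate block and each library left out. The log2 CPM had a prior count of 2. The biological coefficient of variation common to all genes was 0.109.

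The members and lists were chosen with earlier results of these data known. Per-library values are given for members called, for the 3 most abundant of each role, for Dag1, Fn1, Itgb1 and the adaptors, and of each list up to 4 called genes per direction are named by p. Other members, and Pelo, were named after their values were seen, and the alternatives for the counts of the lists were added after seeing the data. Values of some genes are not reported here.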

Additional observations from a re-analysis of the deposited data

How the results depend on the processing

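The direction of the median log2 fold change of the 38 members did not change under any alternative run (-0.08 to -0.03). As reported, 1 member was called higher and 5 lower. With no filter on low counts and with DESeq2, 2 were higher (Itga1 and Itgb3bp), where 4.14% and 6.19% of all genes tested were higher. With limma on log2 FPKM, at a pseudocount of either 1 or 0.1, 0 were higher and 3 were lower (Itga6, Ptk2 and Vcl). There, 1.94% to 2.07% of all genes were higher and 3.36% to 3.51% lower. The limma voom test called 1 higher and 4 lower, where 5.74% and 7.47% of all genes tested were higher and lower. With a library left out in turn, 0 to 5 members were higher and 1 to 10 were lower, the upper ends without siCtrl replicate 2. Fn1 changed sign without siCtrl replicate 2, to a log2 fold change of -0.052 (adjusted p = 0.215 in edgeR), and ranged from -0.052 to 0.062 over the libraries left out. Ptk2 passed in all 11 alternatives and all 6 tests with a library left out. Itga6 and Vcl passed in 10 of 11 alternatives, Itga1 and Itgav in 9 of 11, and Ilk in 5 of 11. Itgax passed in 5 of the 10 alternatives whose filter kept it, of which DESeq2 gave it no adjusted p. The causes were not tested.

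Replicate numbers are shared by the groups. After the group means were taken off, libraries of the same number correlated at -0.04, 0.16 and 0.06. Libraries of different numbers correlated at -0.17 to 0.15. Deviations within a group of 3 sum to 0, so these values cannot show whether the numbers mark pairs. The main test did not take them as pairs. With the number as a replicate block, 1 member was higher (Itga1) and 2 were lower (Itgav and Ptk2). Depth limits the chains under 1 FPKM, where 95% intervals of the log2 difference were widest.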

Other observations

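The motif letters were also counted over all member promoters. The GC box occurred in 19 of 35 member promoters (54.3%) and in 33.1% of all promoters, and the TEAD site in 10 of 35 (28.6%) and in 14.2% of all promoters. The antioxidant response element core occurred in 4 of 35 (11.4%), against 12.1% of all promoters, and the AP-1 site in 2 of 35 (5.71%), against 7.33% of all promoters. The median share of G and C was 58.7% in member promoters and 51.7% in all promoters. All members are protein-coding genes, whereas the set of all promoters also holds promoters of noncoding RNA genes, so the sets differ in kind. These are counts of letters, and no test was run on them.

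The basement membrane proteoglycan perlecan is part of the same matrix, but no row carries its symbol Hspg2. A protein-coding row on chromosome 5 with the clone-based symbol AABR07073181.1 is described in the table as the Hspg2 protein, and RefSeq lists that symbol as a synonym of Hspg2. It was looked at after the other values were seen. It was at 0.12, 0.21 and 0.06 FPKM in siNQO1 libraries, against 0.23, 0.15 and 0.11 FPKM in siCtrl libraries, and did not pass (adjusted p = 0.699 in edgeR).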
